A study of Macaca fascicularis with 21 samples.

Results

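The cadherins and claudins of the cultured cynomolgus monkey (Macaca fascicularis) embryo were followed across 7 families of cells and 6 days. Members were the rows of the count table named CDH or CLDN followed by a number alone, which gave 41 genes, 22 cadherins and 19 claudins, of 30792 in the table. They held 0.108% of all counts, and 9 of them had under 100 counts in all cells together. A level of at least 10 CPM (counts per 1000000 counts) in at least 1 family was reached by 24 members, 16 cadherins and 8 claudins, and these are described by level. The other 17 stayed below that level in every family. Each blastocyst was freed of its zona and cultured alone on a Matrigel bed, a gel of basement membrane proteins. Cells outside the disc were dissected away before single cells were picked, and the shares of cells reflect what was picked. There was no treatment or genotype, and all groups share the culture. The labels give 21 samples, each read here as 1 embryo, with 2, 5, 3, 4, 4 and 3 at days 11, 12, 13, 14, 16 and 17, where 5 carry the day as a culture stage and 16 as a developmental stage. The 12 annotations are the authors' own, made in a way the labels do not state. Tests between families are not independent of the members if these helped to name the cells. The annotations were merged into amnion (AM, 82 cells), gastrulating cells (Gast, 83), primordial germ cells (PGC, 18), endoderm of the visceral layer and yolk sac (VE/YE, 101), mesenchyme outside the embryo proper (EXMC, 485), trophoblast and its derivatives (TE, 380) and epiblast (EPI, 304). Marker genes chosen for each family were highest in their own family for all 5 PGC and all 8 VE/YE markers, 6 of 6 TE, 5 of 7 AM, 5 of 7 EXMC and 3 of 6 EPI markers that reached 10 CPM in any family. For Gast it was 1 of 5, with T and MIXL1 highest in PGC and EOMES and SNAI2 in VE/YE, so Gast is used here as the authors' name.

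Cadherins are calcium-dependent adhesion proteins that hold neighbouring cells together at adherens junctions and are tied to actin through catenins. Claudins are the membrane proteins of tight junctions and set which ions and solutes pass between epithelial cells. As cells leave an epithelium at gastrulation, E-cadherin and epithelial claudins are known to give way to other cadherins, N-cadherin among them.

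Levels are given as CPM of the summed counts of a family's cells in 1 embryo, with the standard deviation (SD) over embryos. Sums of under 5 cells, or under 3 for PGC and for annotated subtypes, were left out, and the counts come from the 3' ends of transcripts. Cells held 3376 to 483669 counts (median 61090) and embryos 2540816 to 11857191. A difference between families is a log2 fold change from edgeR's quasi-likelihood test with the embryo as a block, given with its standard error, and a gene is called where its p, adjusted over all genes tested by the Benjamini-Hochberg method, is under 0.05. The embryos are the replicates. Between families, p-values reflect how the difference within an embryo varies from embryo to embryo, not the spread of levels that the SD gives. For the change with day they reflect the spread between embryos. In both, edgeR shares its estimate of spread across genes. The 6 comparisons with EPI use EPI sums of overlapping embryos, so their values stand side by side and are not independent of each other.

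Of the 24 described members, 5 had their highest pooled level in AM, 3 in Gast, 3 in PGC, 5 in VE/YE, 2 in EXMC, 4 in TE and 2 in EPI. CLDN6, CDH3, CLDN10, CDH1 and CDH10 were highest in AM. CDH2, CDH20, CDH6, CLDN3 and CLDN12 were highest in VE/YE, CDH11 and CLDN11 in EXMC, and CDH5, CLDN4, CLDN7 and CLDN19 in TE. CDH18 and CDH12 were highest in EPI. CDH4, CDH9 and CDH13 were highest in Gast, where 1 cell held 68.5% of the counts of CDH4 and 60.0% of those of CDH13. By the mean over embryos 2 of these ranks differ. CDH13 was then highest in VE/YE, at 21.9 ± 18.8 CPM, with 21.7 ± 13.2 in AM, 17.3 ± 9.40 in Gast and 20.7 ± 9.33 in EPI. CLDN7 was then highest in AM, at 38.4 ± 55.2 CPM, with 29.0 ± 39.5 in VE/YE and 20.5 ± 19.1 in TE. The 3 members highest in PGC, CDH7, CDH8 and CDH19, stood there at 25.8, 27.0 and 40.2 CPM, in 18 cells, and 1 cell held 98.5% of the PGC counts of CDH19.

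**Figure D1:**
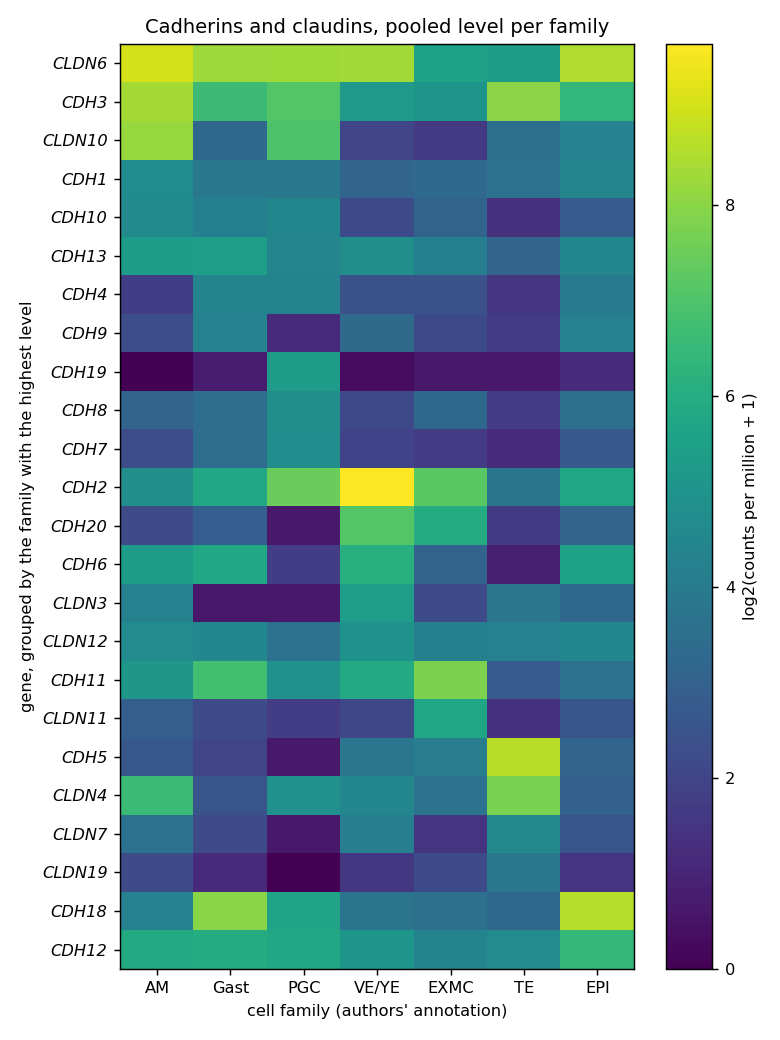
Pooled level of the 24 described cadherins and claudins (rows) in the 7 cell families (columns), as log2(CPM + 1) of all cells of a family summed. CDH2 in VE/YE (825.6 CPM), CDH5 in TE (410.3 CPM) and CLDN6 in AM (533.1 CPM) are each at their highest family there.

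TE differed from EPI in the most members among the comparisons with EPI. In TE, 16 of 26 tested members were called, 5 higher and 11 lower, where 43.6% of all genes were called, 20.9% higher and 22.7% lower. In EXMC it was 10 of 28, 3 higher and 7 lower, against 29.7% of all genes (14.2% higher, 15.5% lower). In VE/YE it was 7 of 20, 3 higher and 4 lower, against 22.6% (9.66% higher, 12.9% lower). In AM 4 of 24 members were called, 3 higher and 1 lower, against 4.63% of all genes (2.71% higher, 1.92% lower), and in PGC 2 of 18, 1 in each direction, against 3.58% (1.33% higher, 2.25% lower). In Gast, edgeR called 0 of 24 members, where 1.19% of all genes were called, 4 members had an unadjusted p under 0.05, DESeq2 called 2 and limma 3. The median log2 fold change of the tested members was -1.69 in TE, -0.77 in EXMC, 0.07 in VE/YE, 0.22 in AM, -0.14 in PGC and -0.15 in Gast, beside medians over all genes of -0.06, -0.08, -0.18, -0.18, -0.40 and -0.18. In TE the cadherins had a median of -1.85 and the claudins of 0.07, and in AM the cadherins had -0.41 and the claudins 1.39.

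CDH1 is E-cadherin, the classical cadherin of epithelia. It was called in no comparison. CDH1 averaged 26.8 ± 21.9 CPM in AM (n = 6), 16.3 ± 4.3 in PGC (n = 3), 13.5 ± 7.8 in Gast (n = 6), 12.4 ± 10.2 in TE (n = 16), 9.2 ± 5.7 in EXMC (n = 19), 8.2 ± 4.3 in VE/YE (n = 9) and 21.9 ± 13.6 in EPI (n = 14), and neighbours in order of level lie within 1 SD of each other. The difference between EXMC and EPI was -1.04 ± 0.43 log2, lower in 11 of 13 embryos (edgeR adjusted p = 0.0668), and it was called in 5 of 9 other settings. A CDH1 count was found in 39.0% of EXMC cells and in 54.3% of EPI cells, and a count of both CDH1 and CDH2 in 30.9% of EXMC cells and in 35.9% of EPI cells.

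CDH2 is N-cadherin, the classical cadherin of mesoderm and neural tissue. VE/YE held far more of it than any other family. In the 7 embryos with both families CDH2 ran from 720.9 to 1243 CPM in VE/YE, with a median of 761.5, and from 11.6 to 33.3 CPM in EPI, with a median of 24.7. The groups did not overlap, and the difference was 5.09 ± 0.24 log2 (edgeR adjusted p = 1.59e-12), higher in 7 of 7 embryos. A CDH2 count was found in 99.0% of VE/YE cells and in 57.6% of EPI cells. After each cell was thinned to 20000 counts, which leaves out 300 shallower cells of the series, the shares were 100% of 69 cells in VE/YE and 37.7% of 247 cells in EPI.

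CDH2 was also higher in EXMC, at 152.9 ± 56.6 CPM against 63.9 ± 99.7 CPM in EPI of the same 13 embryos, a difference of 2.21 ± 0.45 log2 (edgeR adjusted p = 0.0016) in 11 of 13 embryos. The 2 exceptions were embryos of day 17, with 184.5 and 108.8 CPM in EXMC against 307.5 and 265.7 CPM in EPI. EXMC in turn held less CDH2 than VE/YE, at 150 ± 72.8 CPM against 841.9 ± 180.6 CPM over 9 embryos, by -2.52 ± 0.22 log2 (edgeR adjusted p = 5.39e-09). The pooled CDH2 level of EXMC was 17.7% of that of VE/YE, and 8 endoderm markers stood in EXMC at a median of 1.94% of their VE/YE level (range 0.464% to 6.65%). The part of endoderm transcripts in the EXMC values was not tested. In PGC, CDH2 stood at 215.3, 169.4 and 101 CPM against 11.6, 30.9 and 32.6 CPM in EPI of replicates 2, 3 and 4 of day 16, a difference of 2.62 ± 0.72 log2 (edgeR adjusted p = 0.0119). The groups did not overlap. The PGC sums rest on 17 cells, and the call was lost in 2 of 3 fits without 1 embryo, those without replicate 2 and without replicate 3, and without the embryo block (adjusted p of up to 0.472 over all settings). In TE, CDH2 was lower, at 14.4 ± 15.7 CPM against 79.0 ± 110.9 CPM in EPI (n = 10), by -1.88 ± 0.40 log2 (edgeR adjusted p = 0.00103).

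CDH3 is P-cadherin, a classical cadherin of placenta and basal epithelia and the neighbour of CDH1 in the RefSeq gene order. AM and TE held the most of it. In AM, CDH3 ran from 150 to 654.1 CPM (median 249.6), against 47.0 to 126.7 CPM (median 95.1) in EPI of the same 6 embryos. The groups did not overlap and the difference was 1.53 ± 0.27 log2 (edgeR adjusted p = 0.00142). Without the 4 embryos of day 16, CDH3 was no longer called (adjusted p = 0.192). In TE it averaged 241 ± 110.3 CPM against 92.1 ± 37.6 CPM in EPI (n = 10), a difference of 1.47 ± 0.24 log2 (edgeR adjusted p = 6.89e-05), higher in 8 of 10 embryos. CDH3 was lower in EXMC, at 19.4 ± 13.9 CPM against 95.5 ± 36.1 CPM in EPI (-2.36 ± 0.32 log2, edgeR adjusted p = 2.27e-06, lower in 13 of 13 embryos), and in VE/YE, at 35.5 ± 45.8 CPM against 99.7 ± 27.1 CPM in EPI (-2.02 ± 0.50 log2, edgeR adjusted p = 0.00522, lower in 6 of 7 embryos). The VE/YE call was lost in 3 of 9 other settings, without the embryo block, with at least 10 cells a sum and with day 16 alone (adjusted p of up to 0.173). At day 16 the subtype L-AM2 held CDH3 at 265.1, 419.3 and 383 CPM against 115.2, 89.2 and 118.6 CPM in L-AM1 of the same embryos. The subtypes did not overlap in CDH3, yet the difference of 1.66 ± 0.62 log2 was not called (edgeR adjusted p = 0.504). Between L-AM2 and L-AM1, edgeR called 0 of 13 members and 0.200% of all genes, 2 members had an unadjusted p under 0.05, and DESeq2 and limma called 1 each.

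CDH5 is VE-cadherin, the cadherin of vascular endothelium. Each of the 16 TE sums of 5 or more cells held more of it than any sum of the other families. CDH5 ran from 301.8 to 547.2 CPM in TE (median 390.7) against 0.588 to 25.2 CPM in EPI (median 8.39) of the same 10 embryos. The groups did not overlap, and the difference was 5.57 ± 0.34 log2 (edgeR adjusted p = 2.99e-09). A CDH5 count was present in 91.8% of TE cells and in 25.7% of EPI cells, with medians of 69067.5 and 64267 counts per cell, and after thinning in 88.3% and 9.72%. Beside AM, in the 2 embryos of day 12 that had both families, TE held CDH5 at 361.9 and 547.2 CPM and AM at 25.7 and 3.42 CPM, a difference of 5.13 ± 0.50 log2 (edgeR adjusted p = 2.32e-22). In that comparison 4 of 17 members and 14.0% of all genes were called. With only 2 embryos, its p-values rest largely on the spread that edgeR shares across genes, and leaving out either embryo could not be run.

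Of the 8 other endothelial genes measured, PECAM1 and ESAM were also higher in TE, by 4.86 ± 0.35 and 3.01 ± 0.78 log2 (edgeR adjusted p = 7.95e-08 and 0.0103). The endothelial receptor KDR and the transcription factor ERG were lower in TE, by -4.22 ± 0.70 and -2.63 ± 0.76 log2 (edgeR adjusted p = 9.69e-05 and 0.00932). TEK, TIE1 and EGFL7 were not called, and CD34, at 0.38 CPM in TE and 0.73 CPM in EPI, was not tested. CLDN5, the claudin of endothelium, had 8 counts in all 1453 cells.

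**Figure D2:**
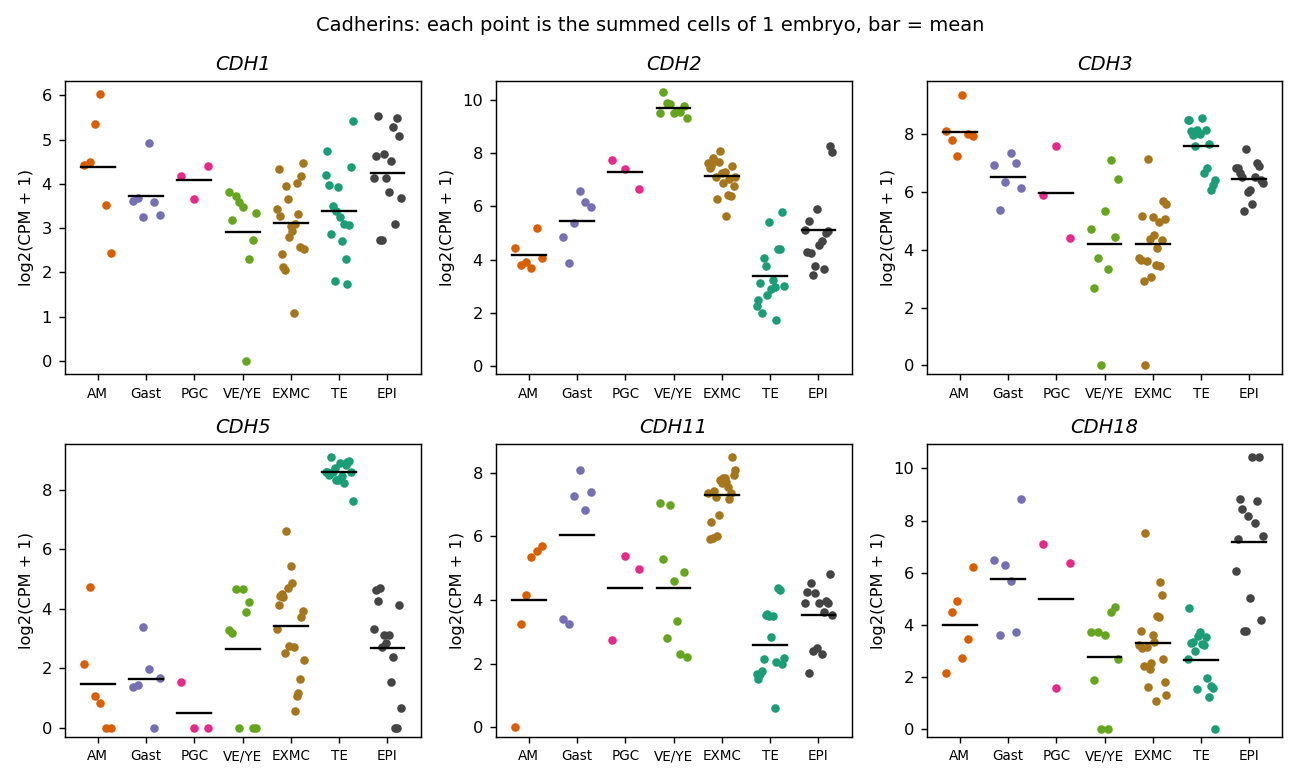
Level of 6 cadherins in each family, as log2(CPM + 1), where each point is the summed cells of 1 embryo and the bar is the mean. CDH5 in TE and CDH2 in VE/YE stand above all other families, while the CDH1 points overlap.

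CDH11 is the cadherin of mesenchyme, first known from osteoblasts. EXMC held it at 59.8 to 358.8 CPM (median 162.6) against 2.27 to 27.4 CPM (median 14.1) in EPI of the same 13 embryos. No values overlapped and the difference was 3.73 ± 0.32 log2 (edgeR adjusted p = 3.05e-09). EXMC also exceeded VE/YE, at 163.8 ± 69.6 CPM against 40.9 ± 50.8 CPM, by 2.75 ± 0.63 log2 (edgeR adjusted p = 0.00988) in 9 of 9 embryos, a call lost with at least 10 cells a sum (adjusted p = 0.106). Between EXMC and VE/YE 8 of 21 members were called, 2 higher and 6 lower, where 12.8% of all genes were called (7.41% higher, 5.44% lower). In TE, CDH11 was lower than in EPI at 6.05 ± 7.18 against 13.6 ± 8.24 CPM (-1.43 ± 0.55 log2, edgeR adjusted p = 0.0418), a call lost in 6 of 10 fits without 1 embryo (without day 13 replicate 2, day 17 replicate 2, either embryo of day 11, day 12 replicate 2 or day 14 replicate 2) and in 3 of 6 other settings, with limma, without the filter on low counts and with at least 10 cells (adjusted p of up to 0.384).

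CDH11 differed between 2 annotations of gastrulating cells. At day 14 Gast held 9.70 and 8.52 CPM, and at day 16 it held 153.8, 274.4, 112.8 and 169.3 CPM. At day 16 the subtype L-Gast2 held 272, 359.2, 144.1 and 194.7 CPM and L-Gast1 of the same 4 embryos 0, 17.6, 1.85 and 8.11 CPM. The subtypes did not overlap, and CDH11 was the 1 member of 12 called between them (5.66 ± 0.81 log2, edgeR adjusted p = 1.72e-06), where 2.38% of all genes were called. The L-Gast1 sums hold 5 counts of CDH11 in 14 cells and the L-Gast2 sums 757 in 33 cells, a pooled ratio of 50.2 with an exact 95% counting interval of 21.4 to 155.1. EXMC of day 16 held CDH11 at 175.5 ± 29.0 CPM and EPI at 11.0 ± 5.0 CPM (n = 4 each).

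Taken over all gastrulating cells, CDH11 stood at 121.4 ± 102 CPM in Gast against 10.5 ± 4.94 CPM in EPI and was higher in 5 of 6 embryos, yet not called (3.00 ± 0.81 log2, edgeR adjusted p = 0.131). It was called without day 14 replicate 4 and by DESeq2. Single gastrulating annotations were also set against EPI alone, settings chosen after the data were seen. CDH11 was called in L-Gast2 (4.50 log2, edgeR adjusted p = 7.21e-06) and not in L-Gast1 (-1.40 log2, edgeR adjusted p = 0.962), the value of which has the other sign. In these fits 2 of 21 members and 5.00% of all genes were called for L-Gast2, and 1 of 18 members, CDH18, and 0.587% of all genes for L-Gast1. For E-Gast 0 of 17 members were called, and 1 had an unadjusted p under 0.05. CDH11 was the 1 of 19 members called between Gast and AM at day 16, with 177.6 ± 68.8 CPM in Gast against 38.2 ± 15.0 CPM in AM (2.31 ± 0.47 log2, edgeR adjusted p = 0.0383), where 0.762% of all genes were called. That call was lost in 3 of 4 fits without 1 embryo (without replicate 1, 2 or 3 of day 16) and under 5 of 7 other settings. CDH3, CLDN4 and CLDN3 were not called there, yet were lower in Gast than in AM in every fit without 1 embryo. Their values in those fits ran from -1.58 to -1.19, -6.32 to -4.01 and -7.82 to -7.05 log2. They were called in 4 of 7, 4 of 6 and 3 of 6 other settings, and CLDN4 also without day 16 replicate 4. CDH2, CLDN10 and CLDN6 were each called in 1 other setting.

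CDH1 and CLDN6 leaned the other way between the same subtypes without passing the test. CDH1 stood at 1.89, 11.7, 4.70 and 2.56 CPM in L-Gast2 against 17.2, 82.3, 33.3 and 48.7 CPM in L-Gast1 (-3.13 ± 1.20 log2, edgeR adjusted p = 0.216). CLDN6 stood at 290.9, 266, 136.3 and 178.1 CPM in L-Gast2 against 577.9, 617.3, 440.4 and 446.3 CPM in L-Gast1 (-1.27 ± 0.39 log2, edgeR adjusted p = 0.062). Neither gene's groups overlapped. DESeq2 called both genes, and against EPI alone CLDN6 in L-Gast2 was called (-0.97 log2, edgeR adjusted p = 0.022). CDH2 averaged 74.4 ± 19.8 CPM in L-Gast2 and 62.9 ± 61.8 CPM in L-Gast1, and the difference of 1.00 ± 0.90 log2 was not called (edgeR adjusted p = 0.798).

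**Figure D3:**
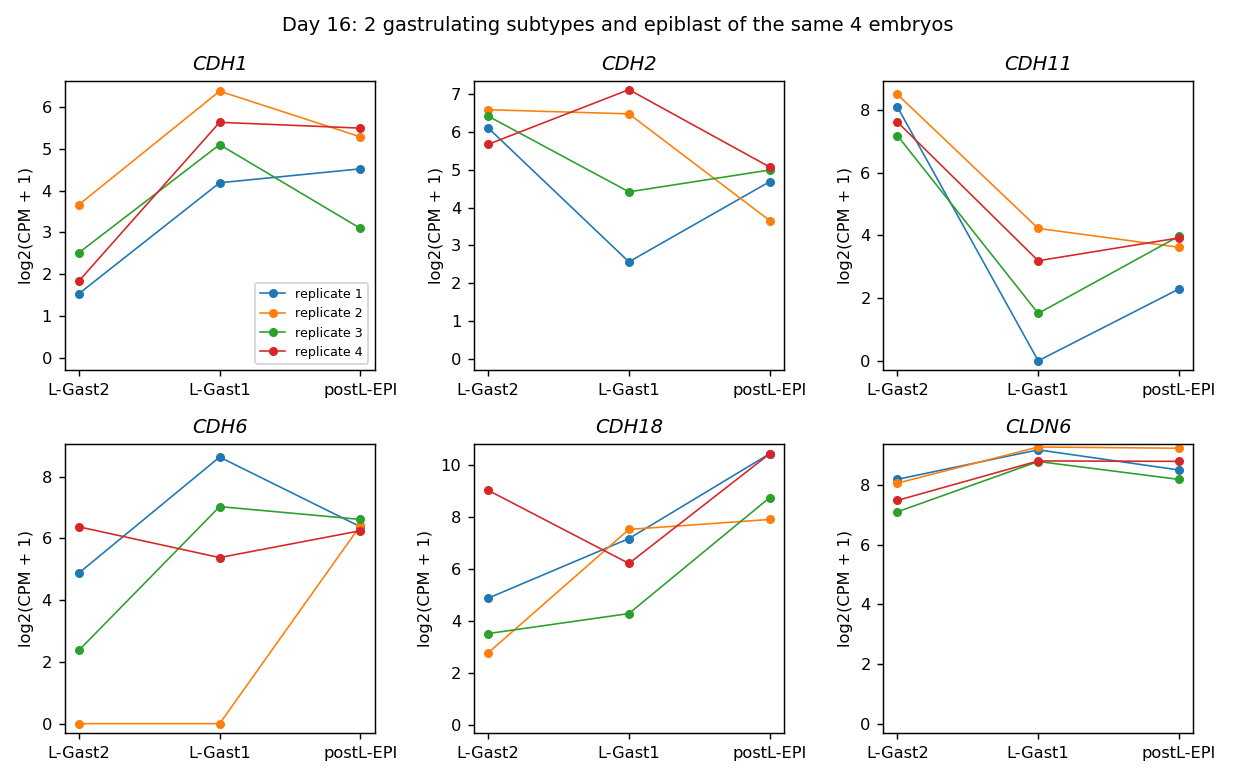
Level of 5 cadherins and CLDN6 as log2(CPM + 1) in L-Gast2, L-Gast1 and epiblast (postL-EPI) of the 4 embryos of day 16, with a line per embryo. CDH11 is high in L-Gast2 in all 4 embryos, and CDH1 and CLDN6 are lower in L-Gast2 than in L-Gast1 in all 4.

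CDH18, a type II cadherin known from the nervous system, was highest in EPI. In AM it ran from 3.42 to 73.3 CPM, against 237.8 to 1375 CPM in EPI of the same 6 embryos. Their ranges stood apart, and AM was lower by -5.15 ± 0.29 log2 (edgeR adjusted p = 2.6e-10). CDH18 was also lower than in EPI in VE/YE (-5.19 ± 0.55 log2), EXMC (-3.87 ± 0.78) and TE (-3.66 ± 0.55), with edgeR adjusted p = 5.08e-05, 0.0024 and 8.98e-05, and the VE/YE call was lost with at least 10 cells a sum (adjusted p = 0.135). In Gast it stood at 11.1 to 458.0 CPM (median 63.8) against 31.7 to 1375 CPM (median 359.0) in EPI, lower in 6 of 6 embryos, and the difference of -2.69 ± 0.63 log2 was not called (edgeR adjusted p = 0.148). The EPI level varied widely between embryos of 1 day, with 1375, 237.8, 427.4 and 1374 CPM at day 16. One cell held 35.2% of all EPI counts of CDH18 and 1 cell 66.6% of those in Gast. A count was found in 70.1% of EPI cells. CDH12, next to CDH18 in the gene order, averaged between 24.9 ± 21.5 CPM in EXMC (n = 19) and 76.5 ± 86.8 CPM in EPI (n = 14), and was called in no comparison of families.

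CDH6, CDH4, CDH9 and CDH13 were each lower than in EPI in at least 1 family. CDH6, a cadherin of kidney and neural crest, was lower in TE (1.42 ± 1.85 CPM against 26.6 ± 18.7 CPM in EPI, -4.43 ± 0.64 log2), in EXMC (8.26 ± 8.11 against 45.6 ± 31.5 CPM in EPI, -2.69 ± 0.47 log2) and in PGC (-5.21 ± 1.19 log2), with edgeR adjusted p = 2.31e-05, 6.74e-05 and 0.000911. In PGC, CDH6 had 0, 2.92 and 10.1 CPM against 84.4, 96.9 and 75.0 CPM in EPI of replicates 2, 3 and 4 of day 16, and its call was lost without day 16 replicate 2 and without replicate 3. CDH4, the retinal R-cadherin, and CDH9, a neural type II cadherin, fell in both EXMC (-2.88 ± 0.65 and -3.37 ± 0.60 log2) and TE (-3.29 ± 0.61 and -2.87 ± 0.53 log2), with edgeR adjusted p of at most 0.00134. With day 16 alone both EXMC calls were lost (adjusted p = 0.647 for CDH4 and 0.0777 for CDH9). CDH9 was also lower in VE/YE (-3.01 ± 0.99 log2, edgeR adjusted p = 0.0318), a call lost in 4 of 7 fits without 1 embryo (day 11 replicate 2, day 12 replicate 2, or day 16 replicate 2 or 3), with at least 10 cells a sum and with day 16 alone (adjusted p of up to 0.527). CDH13, which is anchored in the membrane without a cytoplasmic tail, was lower in TE at 8.28 ± 7.46 CPM against 24.1 ± 8.71 CPM in EPI (-1.66 ± 0.45 log2, edgeR adjusted p = 0.0062).

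CDH20, a type II cadherin, was highest in VE/YE, with a wide spread. It stood at 8.75 to 264.9 CPM in VE/YE (median 133.6, n = 9), and against 1.44 to 34.6 CPM in EPI of 7 shared embryos the difference of 3.73 ± 1.28 log2 was not called (edgeR adjusted p = 0.0677). The 2 embryos of day 11 were the low ones in VE/YE, at 8.75 and 21.7 CPM. EXMC held less CDH20 than VE/YE (-1.90 ± 0.55 log2, edgeR adjusted p = 0.028), a call lost in 5 of 9 fits without 1 embryo (day 13 replicate 3 or any embryo of day 16) and in 3 of 7 other settings, without the embryo block and with at least 3 or 10 cells (adjusted p of up to 0.432). CDH6 was lower in EXMC than in VE/YE without overlap, at 0 to 24.1 CPM against 34.7 to 162.5 CPM in VE/YE of the same 9 embryos (-3.71 ± 0.61 log2, edgeR adjusted p = 0.000101). TE held less CDH20 than EPI (-2.39 ± 0.71 log2, edgeR adjusted p = 0.0106). In the 2 embryos of day 12 with both families TE also held less CDH10 than AM, with 20 counts in TE and 29 in AM (-4.17 ± 1.19 log2, edgeR adjusted p = 0.00538).

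Among the claudins, CLDN6, a claudin of embryonic epithelia and pluripotent cells, was held by 5 families at like levels. It averaged 522.0 ± 128.7 CPM in AM, 369.3 ± 133.4 in VE/YE, 338.9 ± 115.7 in Gast, 324.4 ± 204.8 in PGC and 379.7 ± 90.4 in EPI, and outside AM these means lie within 1 SD of each other. EXMC and TE stood apart. In the 13 embryos with both families, EXMC ran from 0 to 180.2 CPM (median 49.4) against 247.8 to 599.4 CPM (median 380.8) in EPI. In the 10 embryos with both, TE ran from 6.23 to 104.7 CPM (median 38.3) against 247.8 to 456.2 CPM (median 381.1) in EPI. Over all sums the medians were 26.1 CPM in EXMC (n = 19) and 25.5 CPM in TE (n = 16, lowest 1.34 CPM). In the shared embryos neither pair overlapped, with differences of -3.06 ± 0.42 log2 in EXMC and -3.22 ± 0.26 log2 in TE (edgeR adjusted p = 0.000101 and 2.57e-08). CLDN6 was also lower in EXMC than in VE/YE (-2.63 ± 0.37 log2, edgeR adjusted p = 6.35e-05) and in TE than in AM (-4.27 ± 0.38 log2, edgeR adjusted p = 1.41e-26), the latter from only 2 embryos of day 12. CLDN9 lies next to CLDN6 and had 29 counts in all. The sources used here do not give how reads shared by similar claudins were counted, so the split between them is uncertain.

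CLDN4 and CLDN3, which seal epithelia and lie close together, differed in the family where they were highest, TE for CLDN4 and VE/YE for CLDN3. CLDN4 ran from 113.9 to 392.8 CPM in TE against 4.88 to 27.4 CPM in EPI of the same 10 embryos (medians 212.2 and 12.1). No values overlapped and the difference was 4.25 ± 0.22 log2 (edgeR adjusted p = 1.22e-10). In AM it stood at 331.4 and 136.9 CPM in the 2 embryos of day 12 and at 96.7, 115.6, 24.0 and 0 CPM at day 16, against 0.278 to 15.4 CPM in EPI of the same 6 embryos (4.58 ± 0.74 log2, edgeR adjusted p = 0.000873). One AM embryo of day 16 fell to the level of EPI, so these groups overlap. In VE/YE, CLDN4 averaged 23.9 ± 31.8 CPM (n = 9). Against EPI it was not called there by edgeR and was called by DESeq2. In the same cell, CDH5 and CLDN4 counts were both found in 80.0% of TE cells and 12.8% of EPI cells. In EPI, 6 TE markers stood at a median of 4.88% of their TE level (range 0.731% to 16.2%), beside 3.33% for CLDN4 and 1.92% for CDH5, and the part of TE transcripts in the EPI values was not tested.

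CLDN3 was highest in VE/YE. In the 7 embryos with both families it stood at 21 to 54.7 CPM in VE/YE (median 41.3) against 0 to 5.60 CPM in EPI (median 0.359). These ranges stood apart, while over all sums CLDN3 ran from 0 to 70.4 CPM in VE/YE (n = 9) and from 0 to 108.7 CPM in EPI (n = 14), which overlap. The difference was 5.69 ± 0.85 log2 (edgeR adjusted p = 3.83e-05), resting on 180 counts in VE/YE and 10 in EPI. It was higher in AM as well, at 0 to 58.1 CPM (median 19.0) against 0 to 5.60 CPM (median 0.735) in EPI of the same 6 embryos (4.14 ± 1.12 log2, edgeR adjusted p = 0.0355), a call lost in 4 of 6 fits without 1 embryo (day 12 replicate 1 or day 16 replicate 1, 2 or 3), with at least 3 cells a sum and with day 16 alone (adjusted p of up to 0.155). In TE its difference was 1.67 ± 0.56 log2 (edgeR adjusted p = 0.0206), lost without day 14 replicate 2, without the embryo block and with at least 10 cells a sum (adjusted p of up to 0.544). EXMC held less CLDN3 than VE/YE (-3.45 ± 0.77 log2, edgeR adjusted p = 0.00278), a call lost without the embryo block and with at least 10 cells (adjusted p of up to 0.259). In the Gast sums of day 16 CLDN3 had no count in any of 4 embryos.

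CLDN10, which forms ion-selective pores, varied widely between the AM embryos. AM held 157.2 and 132.6 CPM at day 12 and 424.9, 656.5, 26.1 and 2.22 CPM at day 16, against 5.29 to 25.9 CPM in EPI of the same embryos. The 2 low embryos lie within or near the EPI range, and the difference of 3.24 ± 0.85 log2 was not called (edgeR adjusted p = 0.0718), though it was in 6 of 9 other settings. One cell held 33.7% of the AM counts. CLDN10 was lower than in EPI in EXMC (-2.78 ± 0.62 log2), TE (-3.11 ± 0.76) and VE/YE (-3.39 ± 0.98), with edgeR adjusted p = 0.00115, 0.00302 and 0.0151, and the last call was lost without day 11 replicate 2 and with at least 10 cells a sum. With day 16 alone CLDN10 was called in neither EXMC nor VE/YE (adjusted p of up to 0.0929 in EXMC and 0.304 in VE/YE). In TE, 69.3% of CLDN10 counts came from 1 cell. Against AM of day 12, the 2 TE sums held 2 CLDN10 counts and the AM sums 77, a ratio of 0.00157 with an exact 95% counting interval of 0.000187 to 0.00587 (edgeR adjusted p = 1.2e-20), a call lost with at least 3 cells a sum (adjusted p = 0.112).

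CLDN11, known from myelin and the testis barrier, was highest in EXMC. EXMC ran from 8.90 to 193.1 CPM (median 59.4) against 2.80 to 9.02 CPM (median 4.70) in EPI of the same embryos, higher in 13 of 13 embryos (3.68 ± 0.36 log2, edgeR adjusted p = 1.29e-08), and it exceeded VE/YE by 4.37 ± 0.59 log2 (edgeR adjusted p = 5.65e-06). The ranges touch only at the low end of EXMC. CLDN11 was lower in TE than in EPI (-2.07 ± 0.65 log2, edgeR adjusted p = 0.0144), lost without the filter on low counts (adjusted p = 0.0504). CLDN1, an epidermal claudin below 10 CPM in every family and named here after its values were seen, was higher in TE, with 301 counts against 7 in EPI of 10 embryos (5.32 ± 0.85 log2, edgeR adjusted p = 7.99e-05). CLDN7, an epithelial claudin, was higher in VE/YE than in EPI (2.36 ± 0.72 log2, edgeR adjusted p = 0.0202), a call lost in 3 of 7 fits without 1 embryo (day 12 replicate 2 or day 16 replicate 1 or 2) and in 4 of 9 other settings, without the embryo block, with at least 10 cells and with day 16 alone or left out (adjusted p of up to 0.303). It was lower in EXMC than in VE/YE (-3.99 ± 0.80 log2, edgeR adjusted p = 0.000826), lost with at least 10 cells (adjusted p = 0.266). At day 12, replicates 1 and 2 held CLDN7 at 123 and 94.1 CPM in AM and at 59.9 and 65.7 CPM in TE, where the other 3 TE sums held 2.08, 3.12 and 30.9 CPM. CLDN12 averaged between 12.2 ± 10.8 CPM in PGC and 27.5 ± 18.5 CPM in VE/YE, and was called in no comparison of families.

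**Figure D4:**
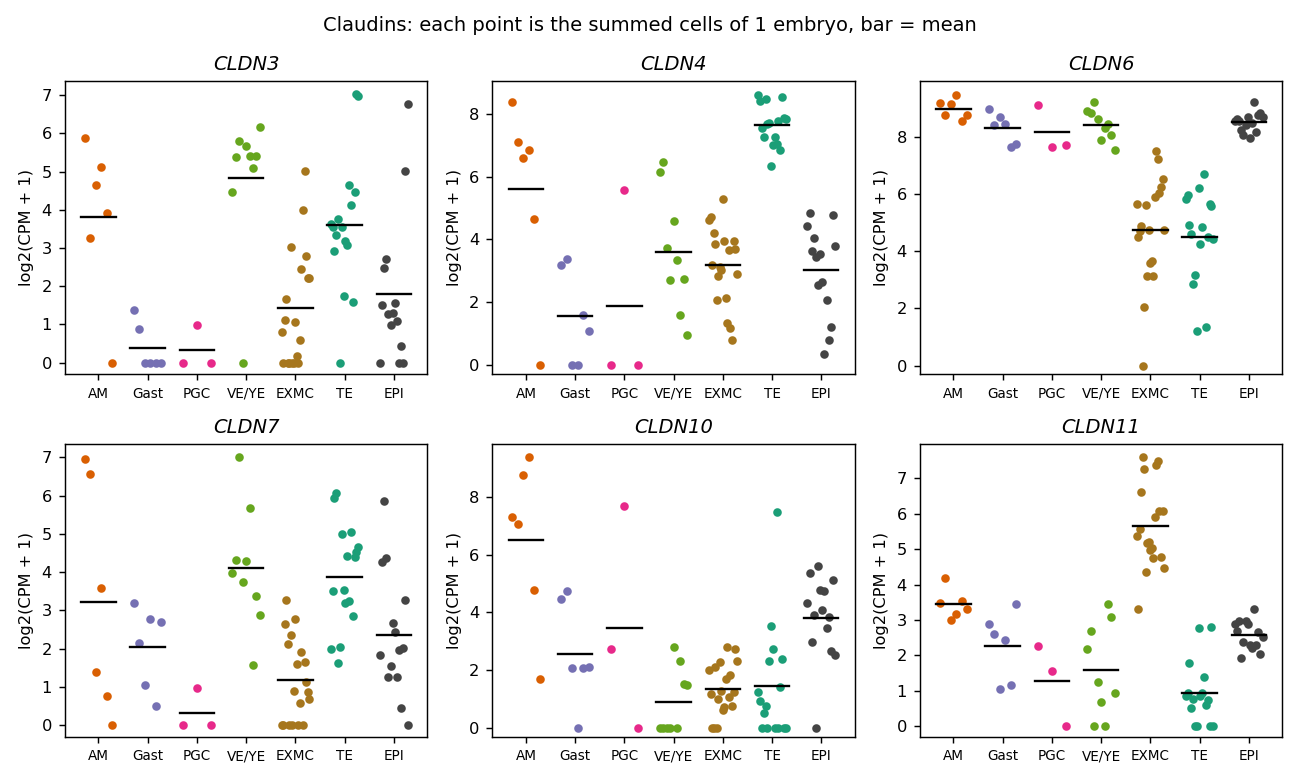
Level of 6 claudins in each family, as log2(CPM + 1), where each point is the summed cells of 1 embryo and the bar is the mean. CLDN6 is low in EXMC and TE, CLDN4 is high in TE and most AM embryos, and CLDN11 is high in EXMC.

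The change with day was fitted within EPI, EXMC, TE, VE/YE and AM. CDH2 was the 1 of 19 members called in EPI (0.47 ± 0.12 log2 per day, edgeR adjusted p = 0.0339), where 3.81% of all genes were called. It rests on day 17. CDH2 stood at 307.5 and 265.7 CPM in the 2 EPI sums of day 17 and at 9.86 to 58.6 CPM in the 12 sums of days 11 to 16. Both day 17 sums come from embryos with culture stage labels, and the 1 day 17 embryo with a developmental stage label had 3 EPI cells, with 40.3 CPM, too few for the fit. Within day 17 the day and the label type therefore cannot be told apart. The sums of day 12 replicate 1 and day 13 replicate 2 also carry culture stage labels and lie within the 9.86 to 58.6 CPM of days 11 to 16. Without day 17 the change was 0.07 log2 per day (adjusted p = 0.792), with developmental stage labels alone 0.09 (adjusted p = 0.759), and the call was lost in 5 of 14 fits without 1 embryo (day 17 replicate 1 or 2, day 11 replicate 2, or day 12 replicate 2 or 3). It was also lost with limma, with at least 10 cells a sum and with label type as a covariate. CLDN3 was also high in those 2 sums, at 31.3 and 108.7 CPM against 0 to 5.60 CPM in the others, and was not tested. CLDN4 and CDH5 were not called, and fell with day in EPI in every fit without 1 embryo. CLDN4 ran there from -0.38 to -0.12 log2 per day. It was called in 3 of 10 other settings, with limma, with developmental stage labels alone and without day 17. CDH5 ran from -0.73 to -0.31 log2 per day and was called in 1 of 10, with limma.

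In TE, 4 of 16 members were called with day, where 14.9% of all genes were. CDH3 fell by 0.37 ± 0.06 log2 per day (edgeR adjusted p = 0.000578), with day means of 354.3 ± 1.0 CPM (day 11, n = 2), 249.4 ± 34.7 (day 12, n = 5), 315.1 ± 87.3 (day 13, n = 2), 172.0 ± 82.3 (day 14, n = 4) and 74.3 ± 9.1 (day 17, n = 3). CLDN19, a claudin of kidney and retina, rose by 1.65 ± 0.29 log2 per day (edgeR adjusted p = 0.00221). It had no count in the 5 TE sums of day 12, day 14 values of 8.34, 0, 63.4 and 0 CPM, and day 17 values of 150.9, 146 and 139.2 CPM. CLDN3 rose by 0.58 ± 0.13 (edgeR adjusted p = 0.00617), at 21.1, 129 and 125.3 CPM at day 17 against 0 to 24.0 CPM before, and CDH12 by 0.34 ± 0.10 (edgeR adjusted p = 0.032), a call lost without day 11 replicate 1 and without day 17 replicate 3. With at least 10 cells a sum CLDN3 and CDH12 lost their calls. Without day 17 edgeR called 0 of 17 TE members and 0.135% of all genes, and 4 members had an unadjusted p under 0.05. With developmental stage labels alone CDH3 (adjusted p = 0.0557), CLDN19 (0.0662) and CLDN3 (0.105) kept their direction and missed the threshold. CDH5 was not called, at 389.6 ± 1.2 CPM at day 11 and 360.3 ± 154.2 CPM at day 17 (-0.02 ± 0.05 log2 per day, edgeR adjusted p = 0.786). It was called in 1 of 10 other settings, with limma.

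In EXMC, 4 of 15 members rose with day, where 11.8% of all genes were called (7.15% higher, 4.64% lower). CDH11 rose by 0.22 ± 0.06 log2 per day (edgeR adjusted p = 0.0193), with means of 111.2 ± 72.7 CPM (day 11, n = 2), 117.1 ± 51.9 (day 12, n = 4), 128.4 ± 81.7 (day 13, n = 3), 220.3 ± 12.4 (day 14, n = 3), 175.5 ± 29.0 (day 16, n = 4) and 289.9 ± 61.2 (day 17, n = 3). The means do not rise at every step, since day 16 lies below day 14. CDH20 rose by 0.48 ± 0.15 (edgeR adjusted p = 0.041), with means of 20.7 ± 6.7 CPM (day 11), 2.5 ± 2.0 (day 12), 21.7 ± 26.7 (day 13), 33.4 ± 9.0 (day 14), 21.5 ± 19.8 (day 16) and 107.5 ± 65.3 (day 17). CLDN6 rose by 0.41 ± 0.13 (edgeR adjusted p = 0.043) with means of 35.5 ± 19.6, 14.1 ± 14.6, 27.4 ± 20.4, 10.1 ± 2.0, 113.8 ± 61.3 and 64.8 ± 34.7 CPM in the same order of days, and CDH10 by 0.59 ± 0.19 (edgeR adjusted p = 0.0399). Without 1 embryo, CDH11 lost its call in 2 of 19 fits (day 11 replicate 2 or day 17 replicate 1). CDH10 lost it in 6 of 13 (day 11 replicate 1 or 2, day 12 replicate 2, 3 or 5, or day 13 replicate 2). CDH20 lost it in 9 of 19 (day 11 replicate 1, day 12 replicate 1, 2 or 3, day 13 replicate 2, day 14 replicate 4, day 16 replicate 4, or day 17 replicate 1 or 3). CLDN6 lost it in 13 of 19, and kept it without day 11 replicate 1, day 13 replicate 1, day 14 replicate 1, 3 or 4, or day 17 replicate 3. With developmental stage labels alone edgeR called 0 of 13 EXMC members and 9.99% of all genes, and 5 members had an unadjusted p under 0.05. Over the other settings, that one included, CDH11 and CDH20 kept their calls in 6 of 10 each, CLDN6 in 5 of 10 and CDH10 in 5 of 7. Without day 17, CDH11 and CDH20 were not called. CDH2 was not called in EXMC, and fell in each of 19 fits without 1 embryo, at -0.17 to -0.11 log2 per day. It was called in 1 of these, without day 17 replicate 1, and in 2 of 10 other settings, with limma and without day 17. CLDN4, at -0.24 to -0.15 log2 per day in those 19 fits, was called in 1 of 10 other settings, with limma.

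In VE/YE edgeR called 0 of 10 members with day (0.145% of all genes), 4 had an unadjusted p under 0.05, DESeq2 and limma called 0, and without the filter on low counts edgeR called 1. In AM it called 0 of 16 (0.843% of all genes), 3 had an unadjusted p under 0.05, and DESeq2 and limma called 1 each. The test of whether EPI, EXMC and TE changed differently with day called 4 of 33 members, where 5.19% of all genes were called. They were CDH3, CDH20, CLDN19 and CDH8 (edgeR adjusted p = 0.00711, 0.00839, 0.0093 and 0.0476). CDH20 moved by 0.48 ± 0.15 log2 per day in EXMC and by -0.42 ± 0.14 in EPI, and CDH3 by -0.37 ± 0.06 in TE, 0.14 ± 0.13 in EXMC and -0.02 ± 0.07 in EPI. CDH8, a type II cadherin, stood at 16.3 ± 7.4 CPM in EXMC, no count in TE and 1.8 ± 2.5 CPM in EPI at day 17.

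**Figure D5:**
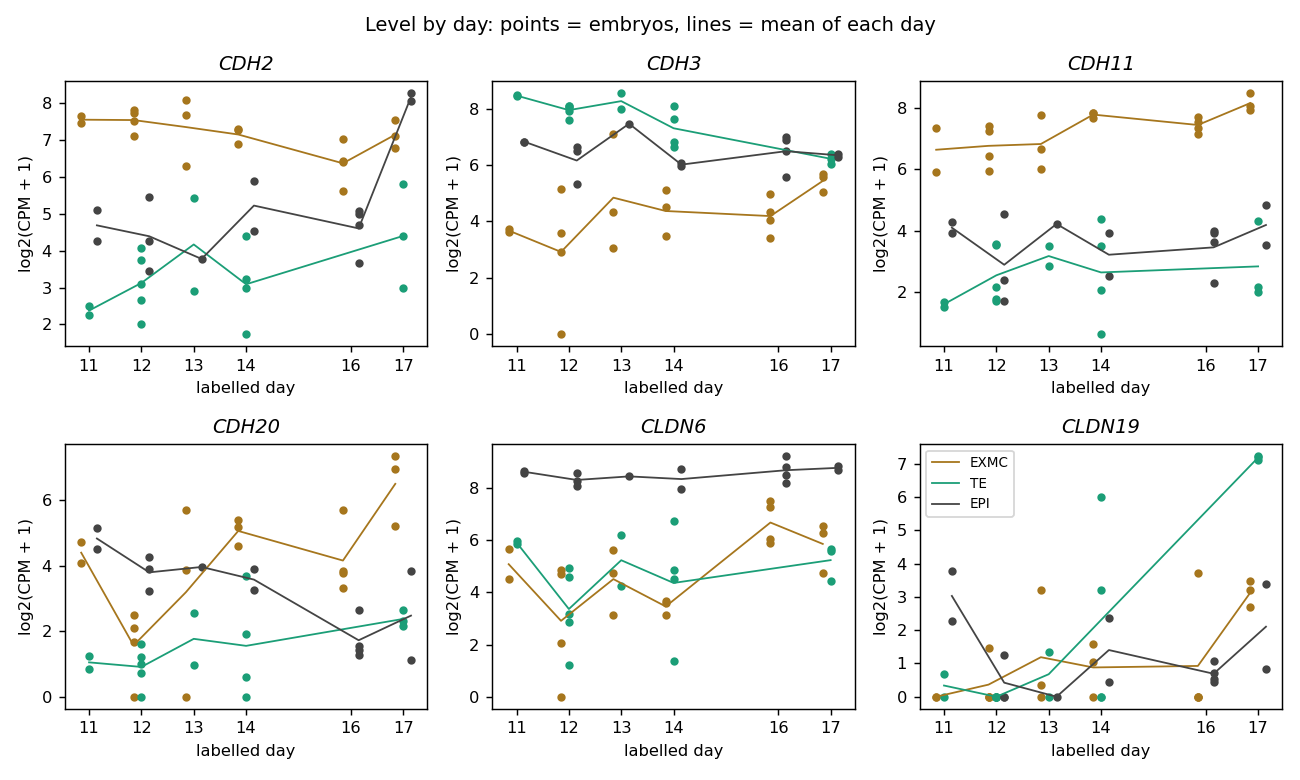
Level by labelled day in EXMC, TE and EPI as log2(CPM + 1) for 4 cadherins and 2 claudins, where points are embryos and lines join the means of each day. CDH2 in EPI and CLDN19 in TE are highest at day 17, and CDH3 in TE is lowest there.

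The partners of these proteins were followed in 5 lists, and their counts stand beside the share of all genes called in the same comparison, which was 43.6% in TE (20.9% higher, 22.7% lower), 29.7% in EXMC (14.2% higher, 15.5% lower), 22.6% in VE/YE (9.66% higher, 12.9% lower), 4.63% in AM (2.71% higher, 1.92% lower) and 1.19% in Gast. Of 7 catenins and related proteins, 4 were higher and 2 lower in TE than in EPI, among them JUP, the catenin shared with desmosomes (1.98 log2, edgeR adjusted p = 8.25e-06), and in EXMC 3 were higher and 1 lower. CTNNB1, beta-catenin, was higher than in EPI in AM (1.46 log2), VE/YE (1.28), EXMC (0.84) and TE (1.65). Of the tight junction partners, 8 of 17 were lower and 2 higher in EXMC, with OCLN, occludin, at -3.24 log2 and TJP3, a scaffold, at -3.87 log2. In TE 6 of 16 were lower and 0 higher, where 22.7% of all genes were lower and 20.9% higher. The list had a median of -1.42 log2 in EXMC and -0.36 in TE, beside -0.08 and -0.06 over all genes. In VE/YE 3 of 14 were higher and 1 lower, where 9.66% of all genes were higher and 12.9% lower. In AM 1 of 17, the adhesion protein EPCAM, was higher (1.62 log2).

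Of 11 transition transcription factors tested in EXMC, the repressors SNAI1, TWIST1, TWIST2, ZEB1 and ZEB2 were higher than in EPI, by 2.77, 4.89, 4.68, 2.40 and 3.74 log2, and the epithelial factors GRHL2, GRHL3 and OVOL2 lower. In TE 4 of 10 were higher and 3 lower, with ZEB1 (-2.39 log2) and ZEB2 (-2.06 log2) among the lower ones. By pooled level alone, neither group of factors moved as one. The epithelial factors GRHL1 (166.1 against 7.02 CPM in EPI) and OVOL1 (153.2 against 7.47 CPM) were higher in TE, and OVOL2 (5.57 against 23.9 CPM) was lower. The repressor SNAI1 (21.5 against 11.6 CPM) was higher in TE, and its pooled level in EXMC was alike, at 21.0 CPM. Of the desmosome genes 6 of 8 were higher and 1 lower in TE, where 20.9% of all genes were higher, 4 of 7 were higher in VE/YE (all genes 9.66%), 3 of 8 higher in AM (all genes 2.71%), and 3 of 9 higher and 2 lower in EXMC (all genes 14.2% and 15.5%). In Gast, DSP, which links desmosomes to keratin, and DSG2, a desmosomal cadherin, were higher than in EPI (1.85 and 0.99 log2) and were the genes called in the 5 lists. Of the 4 nectins, 2 were higher and 2 lower in TE, and 1 was lower in AM.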

How the data were processed

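The files hold one whole-number count per gene and picked cell, deposited by the authors as raw counts without normalization, together with the authors' annotation of each cell. STAR is named in the submitters' processing notes, and the sources used here do not give the genome build, the counting tool, its use of strand or any collapsing of molecular identifiers. Members, gene lists and tests were chosen with earlier results of these data known.

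Counts of the cells of a family were summed per embryo, and sums of under 5 cells (3 for PGC and subtypes) were left out. Families were compared with edgeR 4.0.16 (quasi-likelihood test, TMM scaling, filterByExpr) in R 4.3.3, only the 2 families entering each fit, with the embryo as a block, and change with day was fitted with day as a number. Same-numbered sums of a day come from the same embryo, which pairs them. Adjusted p-values are Benjamini-Hochberg values over all genes kept, and standard errors are approximate, from the F statistic. Each embryo is 1 sample, and no 2 cells held identical counts. Counting intervals are exact binomial ones and cover counting error only.

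Alternatives were RLE scaling, no filter, DESeq2 1.42.0, limma 3.58.1 on mean log2(CPM + 1) over cells, no block, other cell minimums, leaving out embryos and using 1 kind of day label. The fits without day 17, with day 16 alone or left out, and with single gastrulating annotations were chosen after the data were seen. Text names all called members at 10 CPM or more in a family and CDH1, CDH2, CDH3, CDH5, CDH11, CLDN3, CLDN4, CLDN6, CLDN7 and CLDN10 where the text needs them. Of the 41 members, 38 matched the RefSeq gene table of assembly T2T-MFA8v1.1 by symbol, which was used for gene order alone. Sequences were not analysed here. Python 3.11.15, pandas 2.3.3 and matplotlib 3.10.9 were used.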

Additional observations from a re-analysis of the deposited data

Results flagged for a closer look

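Within single days and families of 4 to 10 embryos, 105 groups were examined for a value far from the others. They cover members called in a comparison, in the families of that comparison, and 12 groups held such a value. The rule's chance rate of about 5 percent assumes normal values, which groups with many zeros do not have. The count of 12 was therefore not set against it. In EXMC of day 12, replicate 3 had 183.2 CPM of CDH18, against 4.36 to 7.89 CPM in the others, and 3.33 CPM of CLDN10, against no count. In the same group replicate 1 had 9.89 CPM of CDH10, against no count in the others. In EXMC of day 16, replicate 2 had 10.1 CPM of CDH9, against 0 to 1.5 CPM, and replicate 4 had 51.1 CPM of CDH20, against 8.98 to 13.4 CPM. Replicate 4 was high in CDH20 in EPI too, at 5.29 CPM against 1.44 to 1.93 CPM. In EPI of day 16, replicate 3 had 16.9 CPM of CDH4, against 7.41 to 8.90 CPM.

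In TE, CLDN10 stood at 177.9 CPM in day 14 replicate 2, against 0 to 1.65 CPM, and at 4.02 CPM in day 12 replicate 5, against 0 to 0.692 CPM. CLDN19 stood at 63.4 CPM in day 14 replicate 3, against 0 to 8.34 CPM. At day 12, CLDN4 was at 355.5 CPM in replicate 3, against 153.3 to 207.9 CPM, and CLDN11 at 2.45 CPM in replicate 1, against 0 to 0.692 CPM.

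The change with day differed between TE, EXMC and EPI for CDH3 (edgeR adjusted p = 0.00711), CDH20 (0.00839), CLDN19 (0.0093) and CDH8 (0.0476). Among sums with too few cells for the tests, 3 Gast cells of day 12 replicate 1 held CDH18 at 9406 CPM, where the highest Gast sum used had 458.0 CPM. CDH8 stood at 226.4 CPM in 4 EPI cells of day 12 replicate 4, against at most 15.6 CPM in the sums used, and CDH9 at 173.1 CPM in 3 VE/YE cells of day 17 replicate 2, against at most 5.96 CPM.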

How the results depend on the processing

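Over all alternatives, leaving out embryos included, 1074 values of called members were computed. Of these, 940 stayed past the threshold, 134 fell short of it and 0 changed sign. A member not tested under an alternative enters none of these counts. Of 1447 values of the members named but not called, 64 passed the threshold and 98 took the other sign without a call. Where counts or signs moved, the cause was not tested. Sums of few cells limit PGC, the subtypes and AM, and the counts of some genes, CLDN3 and CLDN10 among them, come largely from few cells in some families. Leaving out either embryo or asking for 10 cells was not run for TE against AM, nor 10 cells or leaving out day 16 for the change with day in AM, nor leaving out embryos for the day-by-family term. With limma on mean log2 values over cells, members called numbered 7 (as reported 4) for AM against EPI, 3 (as reported 0) for Gast against EPI, 5 (as reported 1) for Gast against AM, 4 (as reported 1) for L-Gast2 against L-Gast1, 1 (as reported 0) for L-AM2 against L-AM1, 3 (as reported 1) for day in EPI and 1 (as reported 0) for day in AM. With DESeq2, members called numbered 2 (as reported 0) for Gast against EPI, 6 (as reported 1) for Gast against AM, 4 (as reported 1) for L-Gast2 against L-Gast1, 1 (as reported 0) for L-AM2 against L-AM1, 2 (as reported 1) for day in EPI and 1 (as reported 0) for day in AM. With L-Gast1 cells alone, members called numbered 1 (as reported 0) for Gast against EPI. With L-Gast2 cells alone, members called numbered 2 (as reported 0) for Gast against EPI. Without the embryo as a block (no replicate block), members called numbered 4 (as reported 7) for VE/YE against EPI, 1 (as reported 2) for PGC against EPI, 0 (as reported 1) for Gast against AM and 5 (as reported 8) for EXMC against VE/YE. The filter on low counts depends on the design, so these fits tested fewer members. They tested 12, 15, 11 and 13 in the same order, where the reported fits tested 20, 18, 19 and 21. With a minimum of 10 cells, members called numbered 2 (as reported 7) for VE/YE against EPI, 0 (as reported 1) for Gast against AM, 4 (as reported 8) for EXMC against VE/YE, 0 (as reported 1) for day in EPI, 0 (as reported 4) for day in EXMC and 2 (as reported 4) for day in TE. With day 16 alone, members called numbered 4 (as reported 7) for VE/YE against EPI. With RLE scaling, members called numbered 0 (as reported 1) for Gast against AM and 2 (as reported 1) for L-Gast2 against L-Gast1. With no filter on low counts, members called numbered 5 (as reported 1) for Gast against AM, 1 (as reported 0) for day in VE/YE, 1 (as reported 0) for day in AM and 7 (as reported 4) for the day-by-family term. With a minimum of 3 cells, members called numbered 2 (as reported 1) for Gast against AM. With label type as a covariate, members called numbered 0 (as reported 1) for day in EPI. Without day 17, members called numbered 2 (as reported 1) for day in EPI, 2 (as reported 4) for day in EXMC and 0 (as reported 4) for day in TE. With developmental stage labels alone, members called numbered 0 (as reported 4) for day in EXMC and 1 (as reported 4) for day in TE. Without day 16, members called numbered 2 (as reported 4) for day in EXMC. Without 1 embryo at a time the members called ranged over 0 to 1 for Gast against EPI, 1 to 2 for PGC against EPI, 0 to 2 for Gast against AM, 1 to 3 for L-Gast2 against L-Gast1, 0 to 1 for day in EPI, 1 to 4 for day in EXMC and 0 to 1 for day in AM.

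The following log2 values, per day where a day trend is named, belong to uncalled members whose sign differed from that reported. With a minimum of 3 cells the values were CDH1 -0.31 for AM against EPI, CLDN4 0.16 for Gast against EPI, CLDN4 -0.065 for EXMC against EPI, CDH1 0.12 for Gast against AM, CDH3 -0.0027 and CLDN4 0.15 for TE against AM, CDH11 -0.013 for day in EPI and CDH2 -0.18 and CLDN3 0.011 for day in AM. With day 16 alone the values were CDH1 -0.017 for AM against EPI and CLDN3 4.58 for EXMC against EPI. With L-Gast1 cells alone the values were CDH1 0.72, CDH11 -1.40, CDH3 -0.29 and CLDN6 0.29 for Gast against EPI. With E-Gast cells alone the values were CDH2 -1.33, CDH3 -0.081, CDH5 -1.43, CLDN10 0.63, CLDN4 0.70, CLDN6 0.29 and CLDN7 -0.32 for Gast against EPI. With limma on mean log2 values over cells the values were CDH5 -0.095 for Gast against EPI, CDH11 -0.36 and CLDN10 -0.13 for PGC against EPI, CLDN7 0.52 for TE against AM, CDH5 0.017 for EXMC against VE/YE, CDH3 -0.55 for L-Gast2 against L-Gast1, CLDN4 0.19 and CLDN6 -0.14 for day in TE and CDH1 -0.18, CLDN10 -0.81 and CLDN6 -0.026 for day in AM. With a minimum of 10 cells the values were CLDN4 0.27 for Gast against EPI, CLDN3 0.19 for EXMC against EPI, CDH1 -0.28 for EXMC against VE/YE, CDH1 -0.31, CDH5 0.040 and CLDN7 -0.075 for day in TE and CDH2 0.091 for day in VE/YE. Without day 16 the values were CLDN4 -0.097 for EXMC against EPI and CDH5 -0.61 and CLDN6 0.39 for VE/YE against EPI. With no replicate block the values were CLDN4 -0.21 for L-AM2 against L-AM1. With developmental stage labels alone the values were CDH11 -0.064 and CDH3 0.036 for day in EPI, CDH1 -0.023 for day in EXMC, CLDN6 -0.059 for day in TE and CLDN3 0.33 for day in AM. Without day 17 the values were CDH11 -0.033 and CDH3 0.016 for day in EPI, CDH1 -0.0023 for day in EXMC and CDH1 -0.61 and CLDN7 -0.098 for day in TE. With no filter on low counts the values were CDH3 0.014 for day in EPI and CLDN7 -0.019 for day in TE. With label type as a covariate the values were CLDN4 0.016 and CLDN7 -0.014 for day in TE and CLDN3 0.34 for day in AM. Log2 values of uncalled members that passed through 0 ranged, for AM against EPI, CDH1 from -0.24 to 0.54, for Gast against EPI, CDH5 from -0.58 to 0.78 and CLDN4 from -0.57 to 0.27, for EXMC against EPI, CLDN3 from -0.98 to 0.15, for VE/YE against EPI, CLDN6 from -0.29 to 0.016, for PGC against EPI, CDH11 from -0.12 to 1.12, for EXMC against VE/YE, CDH1 from -0.15 to 0.29, CDH3 from -0.68 to 0.14 and CDH5 from -0.68 to 0.40, for L-AM2 against L-AM1, CLDN10 from -0.24 to 0.76 and CLDN4 from -0.80 to 0.54, for day in EPI, CDH11 from -0.041 to 0.070, CDH3 from -0.053 to 0.00030 and CLDN10 from -0.15 to 0.019, for day in TE, CDH1 from -0.090 to 0.15, CDH5 from -0.082 to 0.021, CLDN4 from -0.10 to 0.029 and CLDN7 from -0.043 to 0.11, for day in VE/YE, CDH2 from -0.073 to 0.0044 and for day in AM, CLDN3 from -0.37 to 0.33.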
